A study of Mus musculus with 20 samples.

Results

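The clustered histone genes are the families that encode the linker histone H1 and the core histones H2A, H2B, H3 and H4 in tandem groups on a few chromosomes. They were taken as every row of the deposited count table whose symbol begins with Hist1h, Hist2h, Hist3h or Hist4h, which gave 70 of 39017 rows. These were 6 H1, 20 H2A, 19 H2B, 12 H3 and 13 H4 genes. By gene identifier, 63 of the 70 were found in the GENCODE M21 annotation of GRCm38, 49 on chromosome 13, 10 on chromosome 3, 3 on chromosome 11 and 1 on chromosome 6, and 3 of the 63 were annotated as pseudogenes.

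Microglia and astrocytes were sorted from the ipsilateral forebrain of C57BL/6 mice 7 days after lateral fluid percussion injury (FPI), a model of traumatic brain injury (TBI), or after sham surgery. Per the study's methods the mice were C57BL/6J males of 3 to 4 months, microglia were gated as CD11b+ with intermediate CD45, and astrocytes by the surface antigen ACSA-2. There were 5 libraries in each of the 4 groups, sham and FPI microglia and sham and FPI astrocytes, and neither genotype nor any agent other than the injury differed between them. The names of 3 microglia and 3 astrocyte libraries share a number, and the names of FPI astrocyte libraries 2 and 5 share another, so not all 20 libraries need be from separate mice. All were fitted as independent, so that p-values measure the spread between these libraries.

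Replication-dependent histone messages are known for ending in a conserved stem-loop in place of a poly(A) tail. The stem-loop is bound by Slbp, and the messages are made mostly in S phase, when new DNA is packed into nucleosomes. Some members of the clusters are also transcribed in cells that do not divide, from longer transcripts that carry a poly(A) tail. The libraries were made from total RNA with a stranded, low-input kit that primes at random, so messages without a tail could be counted. Microglia divide after brain injury, and the comparisons ask how the histone messages stood in each cell type after FPI.

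The letters of the stem-loop were looked for in the annotated transcripts, as a stem of 6 bases GGNNNT, a loop of 4 bases that begins with T, and the complementary ANNNCC. They were found for 46 of the 70 genes by symbol, against 187 of 55450 genes of the annotation (0.337%). The 46 were 4 H1, 11 H2A, 10 H2B, 9 H3 and 12 H4 genes. The stem read GGCTCT in every H1, H2A, H2B and H3 gene that held it, whereas the H4 genes had GGCCCT in 10 and GGTCCT in 2. Of the 24 genes without the letters, 15 had fewer than 20 annotated bases past the stop codon and 3 had no coding transcript, so that the end of the message was not in the annotation. The other 6, with a longer annotated end, were Hist1h1a, Hist1h2bc, Hist1h2bq, Hist1h2br, Hist2h2be and Hist2h3b. In this order they had at most 48, 742, 1608, 1803, 2192 and 37 bases past the stop codon. For Hist1h2bc, Hist1h2bq and Hist1h2br these ends are of spliced transcripts, and introns were not searched. A stem-loop was thus not shown to be absent from these 6 genes. For each class the loop is shown of the gene with the highest level per kilobase of annotated exon among those that had one. It is given with 5 bases on each side, 5′ to 3′ on the gene's strand, from GENCODE M21 transcripts (GRCm38), with the paired stem in capitals.
Hist1h1c (H1, chr13:23739507-23739532, plus strand): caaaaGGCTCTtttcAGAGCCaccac
Hist2h2ac (H2A, chr3:96220413-96220438, minus strand): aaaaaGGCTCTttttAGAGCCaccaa
Hist1h2bg (H2B, chr13:23571838-23571863, plus strand): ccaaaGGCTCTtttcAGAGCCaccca
Hist1h3e (H3, chr13:23561898-23561923, minus strand): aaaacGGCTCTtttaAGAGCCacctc
Hist1h4d (H4, chr13:23581945-23581970, plus strand): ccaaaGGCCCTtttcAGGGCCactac
The stem letters of the first 4 were the same, and those of the H4 gene differed from them. In the order shown, the annotated transcripts run 840, 57, 155, 369 and 770 bases past the stem-loop. Holding the letters thus does not place the end of a counted message there.

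The start regions of the genes carried the letters usual for histone promoters. Among 61 genes matched to RefSeq promoter windows of GRCm38.p6, which run from 250 bases before to 50 bases after the start, CCAAT on either strand was found in 52, against 41.1% of all genes with a window. It was in all 6 H1, 17 H2A, 16 H2B and 10 H3 windows and in 3 of 12 H4 windows. TATAA, on either strand, was in 49 of the 61, against 28.0% of all genes. The octamer ATTTGCAT, the binding letters of Oct-1, was in 14 on either strand, 7 H2A and 7 H2B genes, against 1.97% of all genes. None of the H1, H3 and H4 windows held it. A match is a description of the letters only. Matches were counted wherever they lay, including where motifs share bases. Some H2A and H2B genes start close together on opposite strands, such as Hist1h2ae and Hist1h2bg (chr13:23571220 and chr13:23571396). A match where the windows of such genes overlap is counted for both, so the H2A and H2B counts are not independent. The windows at the starts of the 2 rows called in microglia after FPI are shown by their H2B symbols, and capitals mark CCAAT, the octamer and TATAA on either strand.
Hist2h2bb (chr3:96269450-96269749, plus strand): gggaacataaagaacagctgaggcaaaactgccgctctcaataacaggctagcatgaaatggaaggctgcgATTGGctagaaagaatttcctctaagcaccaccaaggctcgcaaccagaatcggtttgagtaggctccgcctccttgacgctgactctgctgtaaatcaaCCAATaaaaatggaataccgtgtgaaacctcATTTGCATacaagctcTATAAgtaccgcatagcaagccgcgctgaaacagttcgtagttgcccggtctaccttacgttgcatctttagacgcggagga
Hist1h2ac and Hist1h2bc (chr13:23683910-23684209, minus strand): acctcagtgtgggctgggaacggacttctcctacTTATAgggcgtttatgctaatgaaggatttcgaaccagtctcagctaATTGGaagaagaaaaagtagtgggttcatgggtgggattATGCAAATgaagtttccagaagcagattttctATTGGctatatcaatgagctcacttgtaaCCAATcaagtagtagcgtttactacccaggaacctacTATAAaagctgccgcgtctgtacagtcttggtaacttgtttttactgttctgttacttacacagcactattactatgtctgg
The second window is that of Hist1h2ac, on the minus strand. Hist1h2bc is transcribed the other way from position 23684199, inside the same window, and has no window of its own in the table.

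Sequencing depth was 5623349 to 13110857 counts per library, of which the 70 genes took 2556 to 18325, or 0.0274% to 0.153%. No read was counted for 3 genes, Hist1h2aa, Hist2h2aa1 and Hist2h3c1. Enough reads for the test, by edgeR's filter on low counts, were found for 46 genes in microglia and 43 in astrocytes, 37 of them in both. The 18 genes tested in neither had at most 209 reads each over the 20 libraries. Several members are near copies of each other. For 4 of the 63 (Hist2h2aa1, Hist2h2aa2, Hist2h3b and Hist2h3c1) no stretch of 150 bases, the read length, was unique among annotated transcripts, and for 12 fewer than 20% of such stretches were, so that reads of these genes may be shared or lost. The marker genes of microglia summed to 21150 to 25910 counts per 1000000 (CPM) in sham microglia and 16750 to 26530 in FPI microglia, and to at most 147 in astrocyte libraries. Astrocyte markers summed to 9718 to 30250 CPM in the astrocyte libraries, which also held 1620 to 17210 (sham) and 3136 to 10910 (FPI) CPM of oligodendrocyte markers. Markers of oligodendrocyte precursors reached 1476 CPM, in FPI astrocytes 5, and those of monocytes and macrophages 373 CPM, in sham microglia 1. Markers of the remaining types, over all 20 libraries, reached at most 36.8 CPM for neurons, 312 for neural progenitors, 353 for endothelium and 0.479 for T cells. The library FPI astrocytes 5, whose name has the letter of the microglia series, had 14930 CPM of astrocyte and 147 CPM of microglia markers.

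Histone RNA was more abundant in microglia than in astrocytes, and in microglia most of its reads were of linker histone genes. Levels are given as CPM on the trimmed mean of M-values (TMM) scale of all 20 libraries, and values of single libraries follow the order of the library numbers. Summed over the 70 genes, sham microglia had 870.2, 1341, 959, 904 and 1293 CPM and FPI microglia 1072, 1515, 1174, 1204 and 1437 CPM. Sham astrocytes had 339, 464, 326, 442 and 517 CPM and FPI astrocytes 288, 453, 405, 595 and 746 CPM. Every microglia library was above every astrocyte library, while FPI and sham libraries overlapped in both cell types. The means were 1074 ± 225 (SD, n = 5), 1280.3 ± 187, 418 ± 82.2 and 497 ± 178 CPM. The ratio of FPI to sham was 1.19 in microglia and 1.19 in astrocytes, within the spread of the libraries. In bulk samples, more cells that express a gene and more RNA per cell cannot be told apart.

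The 6 H1 genes made up 67.5% of the histone level in sham microglia and 64.96% in FPI microglia, against 47.99% and 47.8% in sham and FPI astrocytes. H1 binds the DNA between nucleosomes. H4, which pairs with H3 in the nucleosome core, made up 9.25% in sham microglia and 20.6% in sham astrocytes. The ratio of sham microglia to sham astrocytes was 3.62 for H1, 2.45 for H2A, 2.37 for H3, 1.55 for H2B and 1.16 for H4. For H4, unlike H1, sham microglia and sham astrocyte libraries overlapped, at 86.5 to 128 and 63 to 119 CPM. Over all libraries 59.7% of the 137552 histone reads were of 3 genes, Hist1h1c, Hist1h1e and Hist1h1d. Their annotated exons are 1560, 1930 and 7425 bases long. The shares of the classes are of CPM without correction for length, so they are not shares of messages. The genes with the stem-loop letters held 92.5% of the summed level in sham microglia and 79.97% in sham astrocytes. The annotated transcripts of Hist1h1c, Hist1h1e and Hist1h1d run 840, 1153 and 4884 bases past the letters. Whether the counted messages ended at the stem-loop was not tested.

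**Figure D1:**
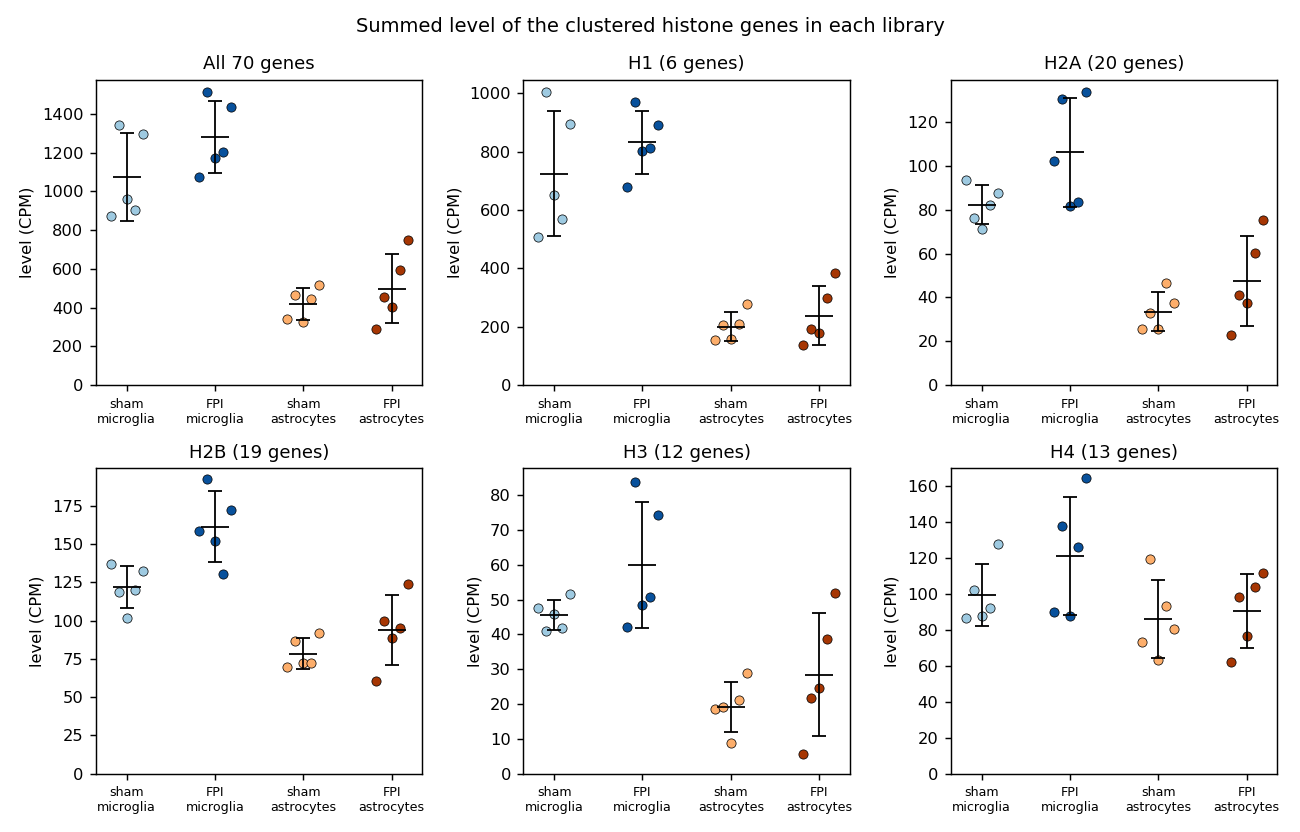
Summed level in CPM (y axis) of all 70 clustered histone genes and of each class in each library, by group (x axis); points are libraries, and lines and bars the mean and SD of 5. All microglia libraries lie above all astrocyte libraries for the 70 genes, from 870.2 against at most 746 CPM, while FPI and sham overlap in every panel.

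To compare genes with each other, levels were divided by annotated exon length, which was possible for the 63 genes found by identifier. The highest per kilobase of each class were Hist1h1c and Hist1h1e (H1), Hist2h2ac and Hist1h2ak (H2A), Hist1h2bc and Hist1h2bg (H2B), Hist1h3e and Hist1h3a (H3), and Hist1h4d and Hist1h4h (H4). Hist1h1c, which encodes H1.2, had 233, 430.3, 280.0, 246 and 381 CPM in sham and 250.01, 408, 332, 353 and 391 in FPI microglia. Astrocyte libraries had 62.7, 77.5, 77.2, 84.1 and 97.7 CPM (sham) and 55.5, 70.99, 66.9, 107 and 147 CPM (FPI). Its mean was 201 CPM per kb in sham microglia and 51.2 in sham astrocytes, and every microglia library was above every astrocyte library. Hist1h1e, which encodes H1.4, had 196, 392, 248, 204 and 339.8 CPM in sham and 308, 369, 299, 306 and 312 in FPI microglia. The astrocyte values were 82.3, 109, 71.9, 98.5 and 124 CPM in sham and 77.2, 95.2, 79.5, 155 and 142 CPM after FPI. The FPI microglia libraries of Hist1h1e, other than library 2, lay close together near the middle of the wide sham range. Both H1 genes were higher in microglia than in astrocytes (log2FC 1.97, SE 0.17, adjusted p = 1.32e-09 and log2FC 1.52, SE 0.16, adjusted p = 2.45e-08, edgeR, 10 against 10 libraries, where log2FC is the log2 fold change and SE its standard error). The exons of Hist1h1e overlap those of Hist1h2be on the same strand, so reads there cannot be assigned.

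H2A and H2B enter the nucleosome as pairs. Among these core histones the cell types stood further apart for some genes than for others. Hist2h2ac, an H2A gene of the chromosome 3 cluster, had 24.99, 30.9, 21.8, 37 and 24.4 CPM in sham and 13.7, 42.9, 20.96, 32.8 and 54.7 in FPI microglia. In astrocytes it had 4.91, 12.4, 7.21, 17.2 and 13.9 CPM in sham and 5.98, 14.9, 13.5, 18.8 and 24.3 in FPI libraries. Microglia were higher on average (log2FC 1.21, SE 0.27, adjusted p = 0.000415, edgeR), although 3 microglia libraries lay below the highest astrocyte library. Hist1h2ak, an H2A gene of the chromosome 13 cluster, had 7.87, 6.295, 7.06, 11.5 and 16.1 CPM in sham and 13.9, 19.3, 8.55, 14.9 and 25.2 in FPI microglia. Astrocyte libraries had 3.85, 5.92, 3.03, 6.36 and 3.16 CPM (sham) and 5.05, 3.63, 4.11, 9.04 and 9.59 CPM (FPI). It too was higher in microglia (log2FC 1.25, SE 0.26, adjusted p = 0.000195), with overlap between the cell types. Hist1h2bg, an H2B gene, had 18.6, 13.1, 11.9, 14.98 and 22.3 CPM in sham and 34.8, 31.2, 21.2, 14.8 and 18.2 in FPI microglia. The astrocyte values were 3.59, 1.65, 3.24, 4.105 and 5.69 CPM in sham and 0.721, 4.38, 5.61, 5.63 and 6.07 CPM after FPI. Every microglia library was above every astrocyte library (log2FC 2.29, SE 0.29, adjusted p = 4.22e-07, edgeR).

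The abundant H3 genes were also higher in microglia. Hist1h3e, which encodes a replication-dependent H3, had 10.7, 18.2, 13.7, 10.7 and 21.02 CPM in sham and 16.8, 25.3, 14.5, 15.1 and 19.7 in FPI microglia. In astrocytes it had 6.77, 4.09, 2.298, 4.52 and 6.697 CPM in sham and 0, 8.26, 5.11, 8.57 and 11.5 in FPI libraries. Microglia were higher (log2FC 1.54, SE 0.40, adjusted p = 0.00163, edgeR), apart from a small overlap with FPI astrocyte library 5, and FPI astrocyte library 1 had no read of it. Hist1h3a, a second such gene, had 15.7, 4.76, 6.16, 6.02 and 8.901 CPM in sham and 8.29, 16.5, 9.52, 10.5 and 1.41 in FPI microglia. Astrocyte libraries had 0.266, 2.26, 0, 2.46 and 1.64 CPM (sham) and 0, 0.501, 1.37, 5.52 and 6.07 CPM (FPI). The spread was wide, with no read in 1 sham and 1 FPI astrocyte library, and microglia were higher (log2FC 2.20, SE 0.63, adjusted p = 0.00341). For the abundant H4 genes the cell types were closer. Hist1h4d, the H4 gene with the highest level, had 36.5, 37.8, 31.8, 42.9 and 45.1 CPM in sham and 42.3, 53.8, 30.8, 52.5 and 89.9 in FPI microglia. The astrocyte values were 35.9, 57.04, 31.03, 39.7 and 38.3 CPM in sham and 27.7, 40.4, 34.8, 39.2 and 43.1 CPM after FPI. The ranges of the cell types overlapped (log2FC 0.24, SE 0.16, adjusted p = 0.183, edgeR). Hist1h4h, the next H4 gene, had 14.4, 12.8, 9.297, 8.399 and 14.2 CPM in sham and 13.9, 15.98, 8.55, 20.2 and 18.2 in FPI microglia. In astrocytes it had 11.2, 20.6, 8.57, 11.9 and 12.3 CPM in sham and 13.3, 20.03, 13.7, 17.1 and 15.98 in FPI libraries. Here too they overlapped (log2FC -0.10, SE 0.18, adjusted p = 0.65). Per kilobase, sham microglia had 34.1 CPM of Hist1h4d and 25.1 of Hist1h4h, and sham astrocytes 35.5 and 27.5, so that the order of the cell types was not resolved beyond the spread of the libraries.

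**Figure D2:**
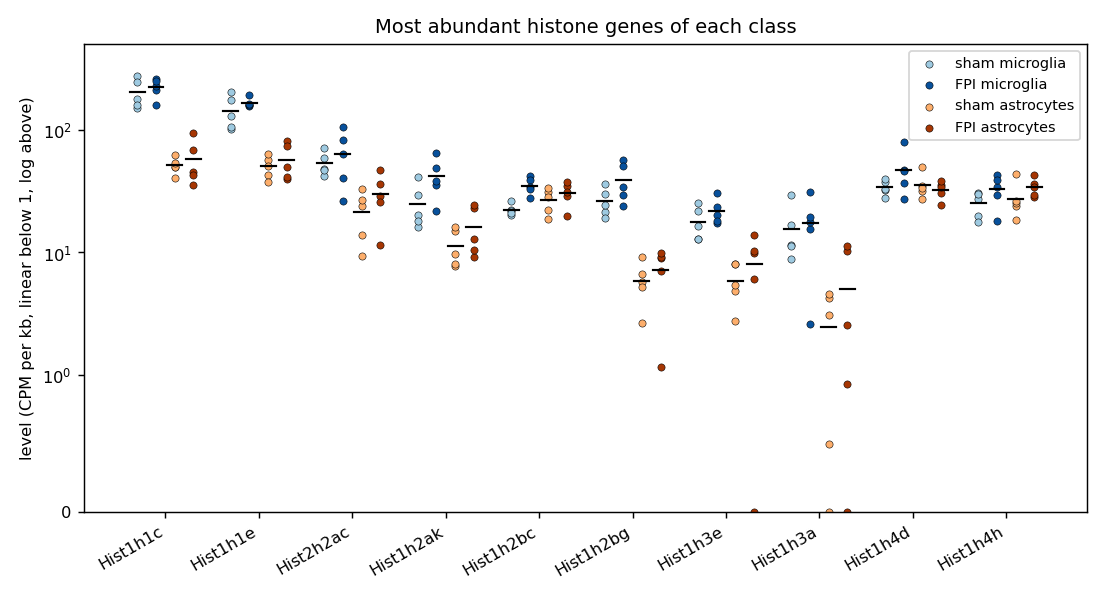
Level per kilobase of annotated exon (y axis, CPM per kb, linear below 1 and logarithmic above) of the 2 histone genes of each class where it was highest (x axis). Points are libraries coloured by group and lines are group means. Hist1h1c lies at 201 in sham microglia against 51.2 in sham astrocytes, while Hist1h2bc, Hist1h4d and Hist1h4h overlap between cell types.

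Across the 56 histone genes tested between the cell types, 26 were higher in microglia and 3 in astrocytes (adjusted p below 0.1 and an absolute log2 fold change above 0.6, edgeR on all 20 libraries, microglia as the mean of their sham and FPI groups). The 29 are 51.8% of the 56, against 64.2% of all 15077 genes tested. Those higher in microglia are 46.4% and those higher in astrocytes 5.36%, against 27.1% and 37.2%. The median log2 fold change was 0.73, against -0.13 over all genes. By class, 4 of 6 H1, 9 of 14 H2A, 5 of 13 H2B, 5 of 10 H3 and 3 of 13 H4 genes were higher in microglia. The 3 genes higher in astrocytes, named here for their small number after their values were seen, were Hist2h2be (log2FC -1.47, SE 0.28, adjusted p = 7.13e-05), Hist3h2ba (log2FC -2.42, SE 0.74, adjusted p = 0.00576) and Hist1h4k (log2FC -1.57, SE 0.49, adjusted p = 0.00648). Hist2h2be is known for its expression in non-dividing olfactory neurons. With the stem-loop letters, 22 of 41 were higher in microglia and 1 in astrocytes. Without them, 4 of 15 were higher and 2 lower. Oligodendrocyte markers were far higher in the astrocyte libraries, and their part in these differences was not tested.

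The divergent pair Hist1h2ac and Hist1h2bc, which start within the window printed above, differed in this respect. Hist1h2ac had 26.2, 17.7, 14.9, 6.02 and 9.66 CPM in sham and 33.97, 13.4, 15.5, 9.09 and 10.2 in FPI microglia, against 2.26, 1.74, 2.72, 1.44 and 2.15 in sham and 3.19, 3.51, 3.11, 3.29 and 2.56 in FPI astrocytes. Every microglia library was above every astrocyte library (log2FC 2.62, SE 0.28, adjusted p = 3.32e-08, edgeR). For Hist1h2bc, which encodes an H2B, the cell types overlapped (log2FC -0.03, SE 0.13, adjusted p = 0.833), with 36.3, 38.6, 32.9, 21.7 and 25.6 CPM in sham astrocytes and 40.4, 43.3, 33.1, 22.9 and 36.1 in FPI astrocytes.

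In microglia, 2 of the rows counted as histone genes, both with H2B symbols, rose after FPI, and none fell. By its identifier the row of Hist2h2bb is a long noncoding RNA, as given below, and it stays in the counts by its symbol. Of the 46 tested, 2 passed (4.35%), against 2.35% of all 12143 genes tested, so the share was near that of all genes. Hist1h2bc had 25.7, 25.3, 23.3, 24.1 and 30.1 CPM in sham and 48.4, 44.8, 39.2, 38.4 and 32.1 in FPI microglia. Every FPI library was above every sham library, which held in this direction for 2.11% of all genes tested and for no other histone gene. No histone gene had every FPI library below every sham library, which held for 1.11% of all genes. The means were 25.7 ± 2.65 and 40.6 ± 6.28 CPM (SD, n = 5; log2FC 0.68, SE 0.17, adjusted p = 0.0389, edgeR). The gene lies on the plus strand (chr13:23684199-23692908, GRCm38). Its 1 annotated transcript has 2 exons, runs 742 bases past the stop codon and does not hold the stem-loop letters. Leaving out 1 library kept the call in 5 of 10 fits. It was lost without sham microglia 2, 3 or 4 or FPI microglia 1 or 2, with adjusted p from 0.102 to 0.132 and log2 fold changes that stayed between 0.59 and 0.74 in all 10. It was also lost in the fit of all 20 libraries (adjusted p = 0.151).

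The row named Hist2h2bb had 7.87, 11.1, 6.27, 6.58 and 12.9 CPM in sham and 10.5, 26.5, 16.02, 11.6 and 28.8 in FPI microglia. FPI libraries 2 and 5 were the highest, and libraries 1 and 4 lay within the sham range. The means were 8.93 ± 2.91 and 18.7 ± 8.49 CPM (log2FC 1.09, SE 0.32, adjusted p = 0.0939, edgeR). The call was kept in 4 of 10 fits with 1 library left out and lost without sham microglia 1, 2, 3 or 4 or FPI microglia 2 or 5 (adjusted p from 0.165 to 0.307). In GENCODE M21 the identifier of this row is not the coding gene but the long noncoding RNA Gm42743 (chr3:96269721-96279001, plus strand). Its first exon (chr3:96269721-96269977) overlaps the start of coding Hist2h2bb (chr3:96269752-96270132), and its second (chr3:96277748-96279001) lies past the gene and ends 3908 bases from Fcgr1 on the other strand. Fcgr1, a microglial Fc receptor, had 289 ± 27.1 CPM in sham and 328 ± 71.9 in FPI microglia (log2FC 0.20, adjusted p = 0.728, edgeR). Which part of the row the reads came from was not tested.

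The next smallest p upward was that of Hist1h1b, which encodes H1.5, a linker histone most abundant in dividing cells. It lies on the minus strand (chr13:21779883-21780625). It had 5.62, 0.952, 2.8, 3.06 and 1.89 CPM in sham and 5.84, 10.6, 4.94, 3.697 and 19.1 in FPI microglia. FPI libraries 1, 2 and 5 were above every sham library, the first of them by little, and the other 2 lay within the sham range. It did not pass by edgeR (log2FC 1.64, SE 0.53, adjusted p = 0.14) but did by DESeq2 (adjusted p = 0.0484), by edgeR with other filters on low counts (0.0549 and 0.0805) and without sham microglia 1 (0.0912) or FPI microglia 3 (0.0868). At an unadjusted p below 0.05, 9 of 46 histone genes were higher in FPI microglia (19.6%, against 7.47% of all genes tested) and none lower (against 3.87%). DESeq2, which tested 67 of the histone genes, called 3 and had 12 higher and 1 lower at that p. Over all genes it called 418 of 20411 and had 1136 higher and 616 lower. The other 6 of the 9, named after their values were seen, were Hist1h2ab, Hist1h2af, Hist1h2ak, Hist1h2bg, Hist1h3b and Hist1h4d, with log2 fold changes from 0.50 to 2.28 and adjusted p from 0.320 to 0.389 (edgeR). Over the 46 tested genes 38 had a higher and 8 a lower fitted level, with a median log2 fold change of 0.32 against -0.01 for all genes. Of the 67 genes with any read, 53 had a higher and 14 a lower mean in FPI microglia. All 6 H1 and all 7 H3 genes tested were on the higher side, as were 9 of 12 H2A, 8 of 10 H2B and 8 of 11 H4 genes. None of these counts is a test of the group, and the genes share libraries and, for near copies, reads.

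The summed level was also split by the stem-loop letters. Summed, the 24 genes without had 76.8, 71.5, 72.4, 83.99 and 95.6 CPM in sham and 117, 155, 100.3, 105 and 168 in FPI microglia. Every FPI library was above every sham library, and the ratio of the means was 1.61. The 46 genes with the letters had 793 to 1269.9 CPM in sham and 954 to 1360.0 in FPI microglia, which overlapped (ratio 1.16). Hist1h2bc and Hist2h2bb are both among the 24, and without this pair the other 22 had 35.2 to 53.3 CPM in sham and 45.2 to 107 in FPI microglia, which overlapped (ratio 1.54). In astrocytes the 24 had 68.01 to 106 CPM in sham and 62.96 to 173 in FPI libraries. Of the genes tested in microglia, 11 of 13 without the letters and 27 of 33 with them had a higher fitted level, with median log2 fold changes of 0.68 and 0.24. The split follows the annotation, in which the ends of most of the 24 are missing, and is given as a description. Transcripts with the letters can run on past them, so it does not separate messages by how they end.

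Downward in microglia, edgeR called 0 genes (0 at an unadjusted p below 0.05). Hist2h2be, on the plus strand of chromosome 3, had 6.25, 3.001, 5.04, 2.61 and 3.598 CPM in sham and 3.15, 0.749, 2.17, 1.85 and 1.28 in FPI microglia, with a small overlap (log2FC -1.14, SE 0.56, adjusted p = 0.466, edgeR). Hist1h4b had 2.62, 2.93, 1.12, 5.45 and 3.22 CPM in sham and 0, 2.62, 1.08, 2.77 and 0.256 in FPI microglia (log2FC -1.19, SE 0.81, adjusted p = 0.689). Hist2h2aa2, an H2A gene without a unique stretch, had 1.75, 1.83, 2.58, 4.99 and 10.04 CPM in sham and 1.75, 2.75, 3.85, 2.46 and 5.76 in FPI microglia (log2FC -0.32, SE 0.57, adjusted p = 0.916). The sham and FPI ranges of all 3 genes overlapped, and FPI microglia library 1 had no read of Hist1h4b.

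**Figure D3:**
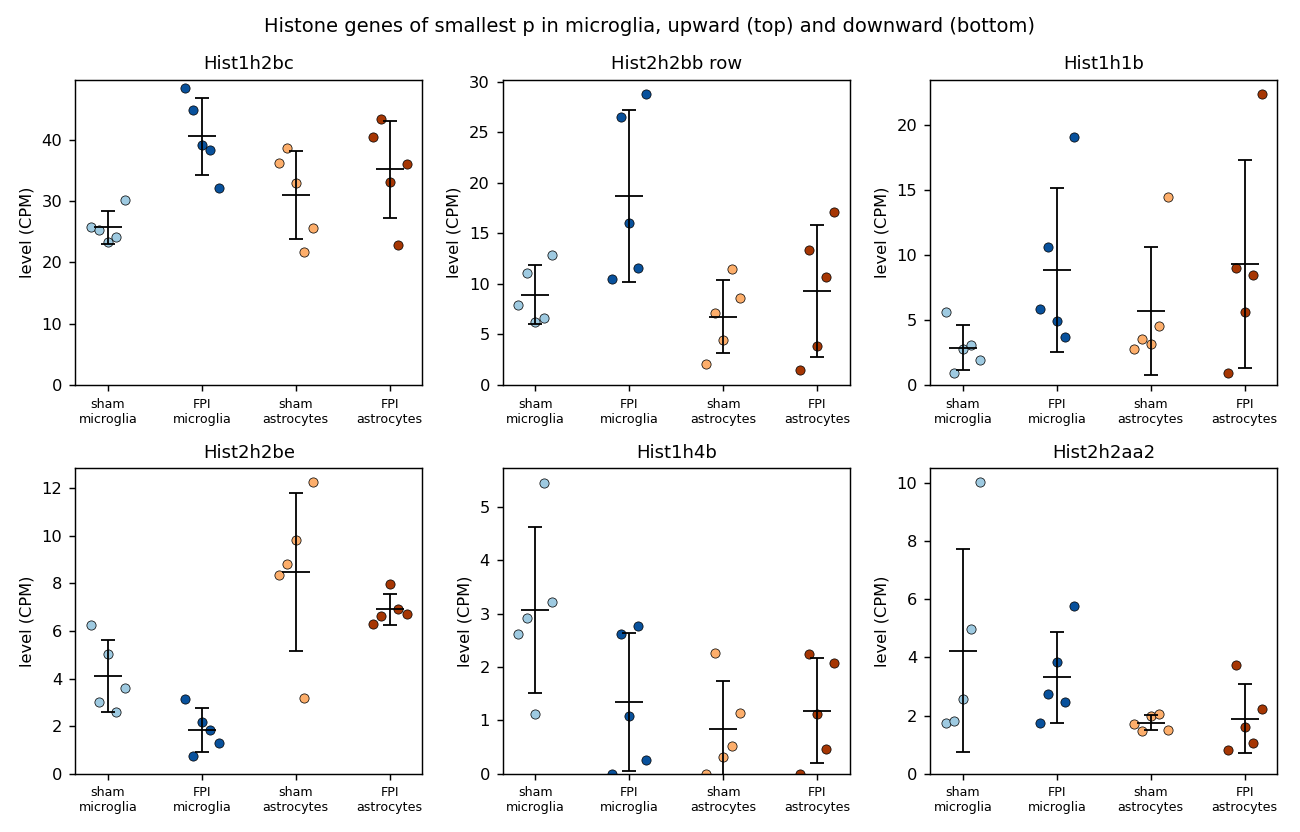
Level in CPM (y axis) of the histone genes with the 3 smallest p upward (top row) and downward (bottom row) in microglia, by group (x axis); points are libraries, lines and bars the mean and SD of 5. In microglia the sham and FPI points are separate for Hist1h2bc, from 32.1 against at most 30.1 CPM, and overlap for the other 5 genes.

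Microglia libraries came from 2 series of names, libraries 1 to 3 and 4 to 5 of each group. The mean of Hist1h2bc in FPI was 1.78 times that in sham in the first series and 1.30 times in the second, and for the row of Hist2h2bb 2.103 and 2.07 times. For the 70 genes summed the ratios were 1.186 and 1.202. Within a series Hist1h2bc passed in the first alone (adjusted p = 0.0592, edgeR, 3 against 3) and Hist2h2bb in neither (0.214 and 0.371), and with a term for the series both passed. Summed levels of proliferation genes and of markers of other cells are given beside these values. The sum of 35 genes of S phase and proliferation was 253 to 315 CPM in sham and 292 to 413 in FPI microglia, and that of 8 astrocyte markers 239.6 to 356 and 287 to 595 CPM. All 8 astrocyte markers had a higher level in FPI microglia and 1 passed. Oligodendrocyte markers summed to 134.6 to 192 CPM in sham and 196 to 287 in FPI microglia, where every FPI library was above every sham library and 1 of 5 tested passed. Markers of oligodendrocyte precursors summed to 6.62 to 8.96 CPM in sham and 6.66 to 22.6 in FPI microglia, and 1 of 3 tested passed. Of all single genes tested in microglia 2.35% passed, and 2.11% had every FPI library above every sham library. Monocyte and macrophage markers summed to 18.8 to 373 and 21.6 to 223 CPM in sham and FPI microglia, and 0 of 5 tested passed by edgeR. This sum split by series. Every library of the first series was above every library of the second, at 118 to 373 against 18.8 to 54.2 CPM. Within the first series every FPI library was below every sham library, and in the second they overlapped. The part of these in the histone values was not tested.

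In astrocytes no histone gene passed. Of 43 tested, 0 were called by edgeR, 0 had an unadjusted p below 0.05, and DESeq2 called 0 of 67 as well (1 at an unadjusted p below 0.05). Of all 13741 genes tested 1 was called (0.00728%), and 1.57% were higher at an unadjusted p below 0.05. DESeq2 called 39 of 22650 genes and had 429 higher at that p. The smallest p upward was that of Hist1h2ab, an H2A gene, with 0.797, 2.003, 0.9403, 2.26 and 2.401 CPM in sham and 0.515, 0.876, 3.61, 6.22 and 8.31 in FPI astrocytes (log2FC 1.22, SE 0.70, adjusted p = 0.999, edgeR). FPI libraries 3, 4 and 5 were above every sham library and the other 2 within or below their range. Hist1h2ac, whose astrocyte values are given above, had FPI libraries between 2.56 and 3.51 and sham libraries between 1.44 and 2.72 CPM (log2FC 0.63, SE 0.37, adjusted p = 0.999). Hist1h4f, an H4 gene with few reads, had 1.33, 0.6096, 0.104, 1.44 and 0.884 CPM in sham and 0.618, 2.13, 2.24, 1.995 and 1.92 in FPI astrocytes, where 4 of 5 FPI libraries exceeded every sham library (log2FC 1.05, SE 0.63, adjusted p = 0.999, edgeR).

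Downward in astrocytes, Hist3h2a, an H2A gene of the small chromosome 11 cluster whose exons overlap Trim17, had 3.32, 4.53, 4.81, 2.98 and 2.91 CPM in sham and 3.92, 2.13, 3.61, 2.11 and 0.959 in FPI libraries (log2FC -0.50, SE 0.43, adjusted p = 0.999, edgeR). Hist2h2be had 8.37, 8.796, 9.82, 3.18 and 12.3 CPM in sham and 6.29, 6.64, 7.97, 6.92 and 6.71 in FPI libraries (log2FC -0.27, SE 0.32, adjusted p = 0.999). Hist1h2bk, an H2B gene, had 1.86, 0.174, 0.313, 2.26 and 1.895 CPM in sham and 0, 0, 0.125, 2.11 and 1.44 in FPI libraries (log2FC -0.80, SE 1.09, adjusted p = 0.999), with no read in 2 FPI libraries. Sham and FPI overlapped for each. Of the 43 tested, 33 had a higher and 10 a lower fitted level, with a median log2 fold change of 0.37 against -0.01 for all genes. Without FPI astrocytes 5 the split was 25 to 18 and the median 0.08, and without FPI astrocytes 1 the split was 40 to 6 and the median 0.61. FPI astrocytes 5 had the highest summed histone level of the astrocyte libraries (746 CPM). Its sums were also the highest for precursor markers of oligodendrocytes (1476 CPM, against 324 to 1121 in the other 9) and for proliferation genes (363 CPM, against 184 to 236 in sham and 210 to 231.5 in the other FPI libraries). FPI astrocytes 4, with the 1121 CPM of precursor markers, had the next highest summed histone level (595 CPM). FPI astrocytes 5 also had the highest sum of microglia markers, 147 CPM, against 30.2 to 61.5 in sham astrocytes and 40.2 to 125 in the other FPI astrocyte libraries. The 125 CPM were in FPI astrocytes 1, which had the lowest summed histone level (288 CPM). All 6 microglia markers tested had a higher level in FPI astrocytes (median log2 fold change 3.15) and none passed. The part of these in the histone level of FPI astrocytes 5 was not tested.

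**Figure D4:**
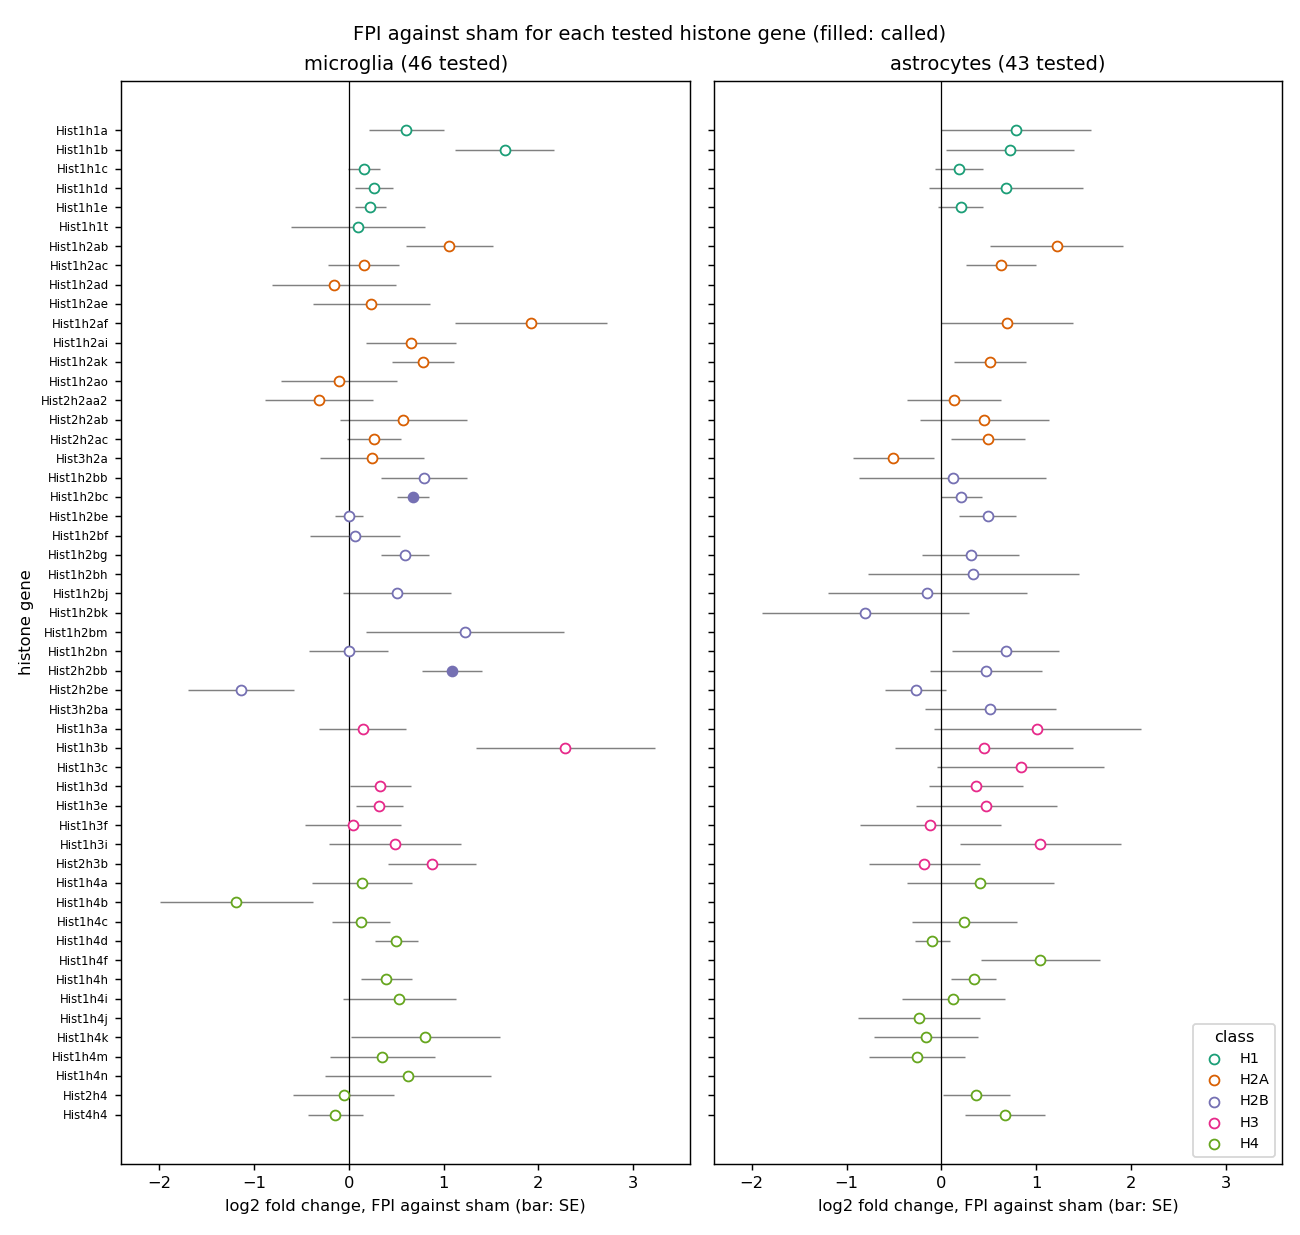
Fitted log2 fold change of FPI against sham (x axis) with its SE (bars) for each tested histone gene (y axis), coloured by class, in microglia (left, 46 genes) and astrocytes (right, 43 genes); filled points passed the test. Hist1h2bc and the row of Hist2h2bb are the filled points, both in microglia, and 38 of 46 and 33 of 43 points lie above 0.

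The effect of FPI was not shown to differ between the cell types for any histone gene. Of 56 tested, 0 differed by edgeR's test of the difference at an adjusted p below 0.1 (0 at an unadjusted p below 0.05, and 0 by DESeq2), against 0.199% of all 15077 genes. Of all genes 0.0332% had a larger effect in microglia at that adjusted p and 3.77% at the unadjusted one. For Hist1h2bc the log2 difference, microglia minus astrocytes, was 0.48 (SE 0.26, adjusted p = 0.779, edgeR). In astrocytes alone its log2 fold change was 0.21 (SE 0.21). For the row of Hist2h2bb the difference was 0.62 (SE 0.72, adjusted p = 0.978), and its astrocyte levels were 2.12, 7.14, 4.49, 11.5 and 8.59 CPM in sham and 1.44, 13.4, 3.86, 10.7 and 17.1 in FPI libraries. Of the 37 genes tested in both cell types, 25 had a higher level after FPI in both, 1 a lower level in both and 11 opposite signs.

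The genes that process histone messages did not pass in either cell type. By edgeR, 0 of 19 tested of 20 were called in each (1 higher at an unadjusted p below 0.05 in microglia and 0 in astrocytes), and DESeq2 called 0. Of the list, which holds Slbp, Npat and the U7 proteins Lsm10 and Lsm11, 11 were higher and 8 lower in FPI microglia (median log2 fold change 0.10) and 9 and 10 in FPI astrocytes (median -0.00064). The smallest p in microglia were those of Cpsf2, of the complex that cuts the messages, with 47.6 ± 6.81 CPM in sham and 62.3 ± 15.2 in FPI libraries (log2FC 0.41, SE 0.17, adjusted p = 0.337, edgeR), and of Eri1, a nuclease of their decay, with 30.3 ± 2.31 CPM in sham and 36.2 ± 4.88 in FPI libraries (log2FC 0.27, SE 0.16, adjusted p = 0.583, edgeR). In astrocytes they were those of Lsm10, with 2.08 ± 1.22 CPM in sham and 3.22 ± 2.34 in FPI libraries (log2FC 0.65, SE 0.56, adjusted p = 0.999, edgeR), and of Cstf2t, with 78.1 ± 15.4 CPM in sham and 67.7 ± 7.94 in FPI libraries (log2FC -0.17, SE 0.17, adjusted p = 0.999, edgeR). The variant histones, most of which are made throughout the cell cycle from messages with a poly(A) tail, gave no call by edgeR or DESeq2 either (2 higher at an unadjusted p below 0.05 in microglia and 0 in astrocytes). In microglia all 9 tested of 11 were higher, with a median log2 fold change of 0.34. The smallest p were those of H2afj, with 12.5 ± 1.59 CPM in sham and 18.9 ± 6.45 in FPI libraries (log2FC 0.61, SE 0.25, adjusted p = 0.318, edgeR), and of H2afx, the variant phosphorylated at DNA breaks, whose gene is known to make messages of both kinds, with 4.998 ± 1.78 CPM in sham and 9.83 ± 5.45 in FPI libraries (log2FC 1.01, SE 0.43, adjusted p = 0.336, edgeR). In astrocytes 10 of 11 were higher (median 0.09), and the smallest p were those of the linker H1fx, with 6.802 ± 2.03 CPM in sham and 8.898 ± 2.91 in FPI libraries (log2FC 0.41, SE 0.30, adjusted p = 0.999, edgeR), and of H3f3b, with 129.9 ± 26.7 CPM in sham and 149.5 ± 41.9 in FPI libraries (log2FC 0.23, SE 0.22, adjusted p = 0.999, edgeR).

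Among histone chaperones, 2 of 15 tested rose in FPI microglia and none fell, where 2.13% of all genes tested were called higher. The median log2 fold change of the 15 was 0.10, against -0.01 for all genes. Npm1, a nucleolar chaperone, had 91.4 ± 5.37 CPM in sham and 165 ± 35.96 in FPI libraries (log2FC 0.87, SE 0.15, adjusted p = 0.00211, edgeR). Daxx, which deposits H3.3, had 25.6 ± 6.27 CPM in sham and 39.1 ± 4.86 in FPI libraries (log2FC 0.63, SE 0.19, adjusted p = 0.0998, edgeR). In astrocytes edgeR and DESeq2 called 0 of 14 (1 lower at an unadjusted p below 0.05). Hat1, which acetylates new H4, had 13.7 ± 3.64 CPM in sham and 7.75 ± 3.22 in FPI libraries (log2FC -0.80, SE 0.34, adjusted p = 0.999, edgeR), and Chaf1a, of the chaperone that follows replication, had 6.09 ± 1.999 CPM in sham and 10.1 ± 5.21 in FPI libraries (log2FC 0.75, SE 0.36, adjusted p = 0.999, edgeR). Among the genes of S phase and proliferation 2 of 28 tested rose in FPI microglia and none fell, with 19 higher, 9 lower and a median of 0.32. At an unadjusted p below 0.05, 7 were higher, where 7.47% of all genes were, and DESeq2 called 4. Top2a, a topoisomerase of dividing cells, had 6.39 ± 2.87 CPM in sham and 23.5 ± 15.5 in FPI libraries (log2FC 1.90, SE 0.40, adjusted p = 0.0124, edgeR). Mki67, the Ki-67 antigen, had 11.2 ± 6.08 CPM in sham and 36.9 ± 26.5 in FPI libraries (log2FC 1.73, SE 0.45, adjusted p = 0.057, edgeR). In astrocytes edgeR called 0 of 26 and DESeq2 1 (2 higher at an unadjusted p below 0.05), with 20 higher, 6 lower and a median of 0.32. The smallest p there were those of Tpx2, with 5.09 ± 1.38 CPM in sham and 10.2 ± 6.49 in FPI libraries (log2FC 1.02, SE 0.43, adjusted p = 0.999, edgeR), and Mcm5, with 3.74 ± 1.94 CPM in sham and 7.14 ± 2.48 in FPI libraries (log2FC 0.96, SE 0.43, adjusted p = 0.999, edgeR).

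Outside the histone genes, those whose log2 CPM followed the log2 of the summed histone level most closely over the 10 libraries of a cell type were Eml2 (r = 0.937), Tomm5 (0.895) and Gm10163 (0.892) in microglia and Adcy6 (0.97), Camk1 (0.969) and Twsg1 (0.963) in astrocytes. These are Pearson correlations picked from 12097 and 13698 genes, over libraries that share depth and cell makeup, and are given as a description.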

How the data were processed

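RNA was measured in 20 libraries of sorted mouse microglia and astrocytes, 5 per group, grouped by the labels. The authors trimmed and aligned the reads with HISAT2 2.1.0 within bcbio-nextgen 1.0.8 against mm10 and deposited raw read counts per gene from featureCounts. Its settings for strand and for reads that match several genes are not given in the sources used here. The deposited table also pairs identifiers with symbols. Library totals were 5623349 to 13110857 counts, which limits the precision of genes with few reads.

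The counts were fitted in R 4.3.3 with edgeR 4.0.16 (filterByExpr, TMM, quasi-likelihood test) over all genes, with p-values adjusted over all genes tested by the Benjamini-Hochberg method. Genes were called at an adjusted p below 0.1 and an absolute log2 fold change above 0.6, and the difference of effects at an adjusted p below 0.1. FPI was compared with sham within each cell type (10 libraries) and the cell types over all 20. DESeq2 1.42.0, other filters, RLE factors, a robust fit, a replicate block, the series of library names and libraries left out were tried as alternatives. The steps were tested on simulated data. Levels are counts per 1000000 (CPM) on the TMM scale.

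The histone genes and the lists (message processing, variant histones, chaperones, S phase, markers) were chosen with earlier results of these data known. Values in every library are given for the genes called, the 3 of smallest p in each direction and cell type, and the 2 of each class with the highest level per kilobase. From the related lists the text names the genes called and the 2 of smallest p, and 3 genes per cell type are named for likeness to the summed level. Other genes that are named are marked as such. GENCODE M21 gave positions, lengths and transcripts, and RefSeq promoter windows, in Python 3.11.15 with pandas 2.3.3. No genome sequence was used, so stem-loops past the annotated ends or in introns were not looked for.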

Additional observations from a re-analysis of the deposited data

Results flagged for a closer look

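Among 104 sets of 5 libraries, each a named histone gene or a summed level in 1 group, 5 held 1 library far from its other 4, where the gap to the nearest library over the whole range exceeded 0.71. Chance alone gives about 1 in 20 such sets. Hist1h1b was at 14.4 CPM in sham astrocyte library 5, against 2.79 to 4.52 in the other 4, a gap of 0.851 of the range. Hist1h2ac was at 34.0 CPM in FPI microglia library 1, against 9.09 to 15.5 (0.741). Hist1h4f was at 6.02 CPM in FPI microglia library 5, against 0.700 to 1.23 (0.900), and at 0.618 CPM in FPI astrocyte library 1, against 1.92 to 2.24 (0.800). Hist1h1e was at 369 CPM in FPI microglia library 2, against 299 to 312 (0.812).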

How the results depend on the processing

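In microglia 2 histone genes were called, 3 by DESeq2 and with either other filter on low counts (1 count in any library, or 10 in each), and 2 with RLE factors, the robust fit or a term for the series of names. The count was 1 at an adjusted p below 0.05 with no minimum fold and in the first series of names alone, and 0 in the second series alone and in the fit of all 20 libraries. With 1 library left out it ranged from 0 to 4, with 0 without sham microglia 2 or 3 or FPI microglia 2, 1 without sham microglia 4 or FPI microglia 1 or 5, and 4 without FPI microglia 3. Between the cell types 29 genes were called, 28 to 32 with 1 library left out and 8 under the minimum of 10 counts in each library, which left 12. In astrocytes, and for the difference of effects, the count was 0 under all alternatives run.

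The replicate numbers of the labels were fitted as a block, which gave 2 histone genes in microglia, 0 in astrocytes, 31 between the cell types and 0 for the difference. Deviations of libraries with the same number correlated between -0.066 and 0.092 in microglia and, in astrocytes, by 0.45, -0.009, 0.245, 0.452 and 0.348 for numbers 1 to 5. Since not every pair was above 0.1 the numbers were not taken as pairs, although both libraries correlated best with their own number for 1, 3 and 4. With the block 11 genes of the whole table were called in astrocytes, against 1 without it.

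In the comparison each gene was named for, signs turned in the following values, none of them called. Hist1h2bc between the cell types ranged from -0.104 to 0.0243 (log2 fold change, highest without FPI astrocytes 2), Hist1h4h from -0.185 to 0.0336 (without sham astrocytes 2), and Hist2h2aa2 in microglia from -0.643 to 0.279 (without sham microglia 5), with 0.412 in the first series alone. The difference of effects of Hist2h2bb was -0.133 without the 3 astrocyte libraries of shared numbers. Of 246 settings for single genes other than leaving out 1 library, 231 kept direction and call, 10 lost the call, 3 gained it and 2 turned sign. The cause was not tested. Depth limits the genes at few reads: at or below 3 counts in every library were 6 genes in sham microglia, 8 in FPI microglia, 9 in sham astrocytes and 8 in FPI astrocytes.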
